A study of Homo sapiens with 12 samples.

Results

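Microtubules are hollow protein tubes built from heterodimers of 1 alpha and 1 beta tubulin, and humans encode each chain in several separate genes, called isotypes. The encoded chains are nearly the same along their folded bodies and differ mostly in the acidic tail at the C-terminal end, which faces outward and is the site of polyglutamylation and other reversible modifications. Isotype use differs between tissues, TUBB3 and TUBB2B being best known from neurons, and beta tubulin is the protein bound by taxanes, drugs that are used against prostate cancer. The genes examined here were the 10 alpha and beta tubulin genes TUBB, TUBB2A, TUBB2B, TUBB3, TUBB4A, TUBB4B, TUBB6, TUBA1A, TUBA1B and TUBA1C, found by their symbols among the 58302 genes of the deposited expression table, with 1 row for each symbol.

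The table held RNA sequencing of 12 libraries, 4 from each of 3 human prostate cell lines. BPH-1 is an epithelial line of benign hyperplastic prostate immortalised with the SV40 large T antigen, and DU145 and PC3 are prostate cancer lines first grown from a brain and a bone metastasis. All 3 carried the wild-type label, none was treated, and they shared a single medium, DMEM with 10% fetal bovine serum, penicillin and streptomycin. Values were FPKM, that is reads of a gene scaled by its length and by the reads of the library, and differences between lines were tested with limma on log2(FPKM + 1), with p-values adjusted over all genes tested. The 4 libraries of a line were not described as separate cultures, so the p-values measured only the spread between these libraries, which may be technical. In such bulk samples fewer cells of a kind and less RNA per cell cannot be told apart. Depth recovered from the values ran from 12950664 to 16309562 reads a library.

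Basal markers (KRT5, KRT14 and TP63) summed to between 298 and 427 FPKM in the BPH-1 libraries, and to at most 0.994 in DU145 and 0.0645 in PC3. The prostate antigen gene KLK3 was listed at 0 in every library of every line. The 5 epithelial markers summed to 149.3 to 207.6 FPKM in BPH-1, 84.1 to 163.2 in DU145 and 219.8 to 367.4 in PC3 and did not move together. EPCAM averaged 60.8, 0.376 and 9.11 FPKM in BPH-1, DU145 and PC3, and CDH1 28.4, 0.180 and 0.786, whereas the keratin KRT19 averaged 31.96, 22.7 and 231.6 and KRT18 35.8, 68.95 and 29.5. Of the 10 neural and neuroendocrine markers, the neuronal genes ELAVL4, DCX and STMN2 were at 0 in all 12 libraries, and the summed level of the list ran from 3.65 to 4.85 FPKM in BPH-1, 3.56 to 4.64 in DU145 and 4.74 to 7.78 in PC3. The leukocyte gene PTPRC averaged 1.35, 0.649 and 0 FPKM in the same order.

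Libraries of DU145 and PC3 also differed among themselves in a trend with transcript length. Over 8582 protein-coding genes, long transcripts (at least 5302 bases) stood above short ones (at most 2400 bases) by 0.35 to 0.49 on the log2 scale in the 4 BPH-1 libraries, relative to each gene's mean over all libraries. The same measure was -0.58, 0.21, -1.09 and 0.20 in DU145 replicates 1 to 4, and 0.10, 0.09, -0.05 and -0.54 in PC3. DU145 replicates 1 and 3 and PC3 replicate 4 therefore stood apart from the other libraries of their lines. A trend with GC content split the same libraries, with slopes per 10 points of GC of 0.53 and 0.82 in DU145 replicates 1 and 3 against -0.23 and -0.09 in the other DU145 libraries. The longest annotated transcript of each tubulin gene spanned 1595 to 3198 bases with a GC content of 51.6% to 62.0%, and 6 of the 10 lay at or below 2400 bases. Each call on a tubulin gene that changed after both trends were divided out, or without those 3 libraries, is given below with its changed value.

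In each pair of beta genes, the end of the coding region, which encodes the acidic tail, was less alike than the coding region as a whole. It is shown as a description, since the expression values below are for whole genes and do not measure these ends. The ends of TUBB2A and TUBB2B were 96.7% identical and differ only at the base before the stop codon and in the stop codon. The last 60 coding bases, stop codon included, are printed 5′ to 3′ on the coding strand from GRCh38 with GENCODE release 29. Capitals mark bases that differ from TUBB, or have no partner in it, in a global alignment of the whole coding regions. Only the beta genes are shown.
TUBB, chr6:30724338-30724397, plus strand: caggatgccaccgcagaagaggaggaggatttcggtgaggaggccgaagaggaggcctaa
TUBB2A, chr6:3153863-3153922, minus strand: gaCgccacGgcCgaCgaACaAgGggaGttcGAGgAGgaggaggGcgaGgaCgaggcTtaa
TUBB2B, chr6:3224751-3224810, minus strand: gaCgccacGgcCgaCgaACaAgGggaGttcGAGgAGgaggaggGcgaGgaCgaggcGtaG
TUBB3, chr16:89935745-89935804, plus strand: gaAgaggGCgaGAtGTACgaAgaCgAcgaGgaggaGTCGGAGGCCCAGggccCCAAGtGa
TUBB4A, chr19:6495164-6495223, minus strand: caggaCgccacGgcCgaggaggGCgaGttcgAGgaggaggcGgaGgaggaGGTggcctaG
TUBB4B, chr9:137243497-137243556, plus strand: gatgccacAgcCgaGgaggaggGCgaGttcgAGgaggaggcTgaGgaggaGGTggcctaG
TUBB6, chr18:12326071-12326130, plus strand: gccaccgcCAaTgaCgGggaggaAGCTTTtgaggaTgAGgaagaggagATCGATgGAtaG
The number of bases so marked was 14 in TUBB4A and in TUBB4B, 18 in TUBB2A, 19 in TUBB2B, 23 in TUBB6 and 32 in TUBB3, whose end was the least like TUBB. Bases of TUBB that are missing from the other gene are not counted.

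Over whole coding regions of 1335 to 1356 bases, the beta genes other than the TUBB2A and TUBB2B pair were 80.9% to 90.1% identical to each other and the alpha genes 95.9% to 97.2%. TUBB2A (ENSG00000137267) and TUBB2B (ENSG00000137285) lie near each other on the minus strand of 6p, at chr6:3153669-3157526 and chr6:3224261-3231730, and their coding regions were 98.1% identical, with 25 differing positions. Of all runs of 100 bases in the exons of TUBB2A, 48.9% occurred in another gene as well, and in TUBB2B 42.4% did. Reads from such runs can be split between the pair, so their single values are uncertain and their sum is given beside them. The share was 29.7% in TUBB3, 13.5% in TUBA1B, 9.34% in TUBA1A, 6.81% in TUBA1C, 3.8% in TUBB, 2.09% in TUBB4B and 0 in TUBB4A and TUBB6. Over the coding part alone it was higher, at 71.7% in TUBB2B, 68.0% in TUBB2A, 45.2% in TUBA1B, 26.7% in TUBA1C and 26.4% in TUBA1A. It was 10.6% in TUBB and 3.55% in TUBB4B, and again 0 in TUBB4A and TUBB6. TUBB3 (ENSG00000258947, chr16:89921392-89938761) shared 95.6% of the runs of its coding part with AC092143.1, an annotated read-through transcript on the same strand, to which reads of TUBB3 could have been assigned.

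TUBB and TUBB4B made up most beta tubulin RNA in every library, and the balance between them differed between the lines. TUBB (ENSG00000196230, chr6:30720201-30725426, plus strand) is the broadly expressed class I beta tubulin. In BPH-1 it stood at 408.3, 373.6, 335.7 and 340.5 FPKM in replicates 1 to 4. In DU145 the level was 355.1, 304.0, 442.0 and 291.0, and in PC3 731.9, 647.8, 682.3 and 786.8 FPKM. Every PC3 library lay above every library of the other lines, whereas DU145 and BPH-1 overlapped. The PC3 mean of 712 ± 60.5 FPKM (SD, n = 4) was 1.95 times that of BPH-1, 364 ± 33.7 (log2 difference 0.97 ± 0.11 (SE), limma adjusted p = 3.833e-05). PC3 was also higher than DU145, at 348 ± 68.5, by 1.05 ± 0.17 on the log2 scale (limma adjusted p = 7.289e-04). DU145 and BPH-1 differed by -0.08 ± 0.17 (limma adjusted p = 0.682), but with both library trends divided out TUBB was called lower in DU145, by -0.55. The same correction lowered the PC3 difference from BPH-1 to 0.56, still past the threshold.

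TUBB4B (ENSG00000188229, chr9:137241213-137243707, plus strand), the other widely expressed beta isotype, known for its place in cilia, was lowest in DU145. Its level was 348.6, 279.7, 326.8 and 317.4 FPKM in BPH-1. The DU145 libraries held 108.8, 86.33, 143.9 and 81.98 FPKM, and the PC3 libraries 273.4, 233.7, 222.8 and 344.1. No DU145 library reached the level of any library of the other lines, and PC3 and BPH-1 overlapped. The DU145 mean of 105 ± 28.3 FPKM was 3.02 times lower than the BPH-1 mean of 318 ± 28.8 (log2 difference -1.62 ± 0.19, limma adjusted p = 6.182e-05, n = 4). PC3, at 269 ± 54.9, was higher than DU145 by 1.36 ± 0.22 (limma adjusted p = 7.256e-04). PC3 against BPH-1 gave -0.26 ± 0.15 (limma adjusted p = 0.143), which became -0.85 and passed the threshold with both trends divided out, and -0.39, also called, without PC3 replicate 4.

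**Figure D1:**
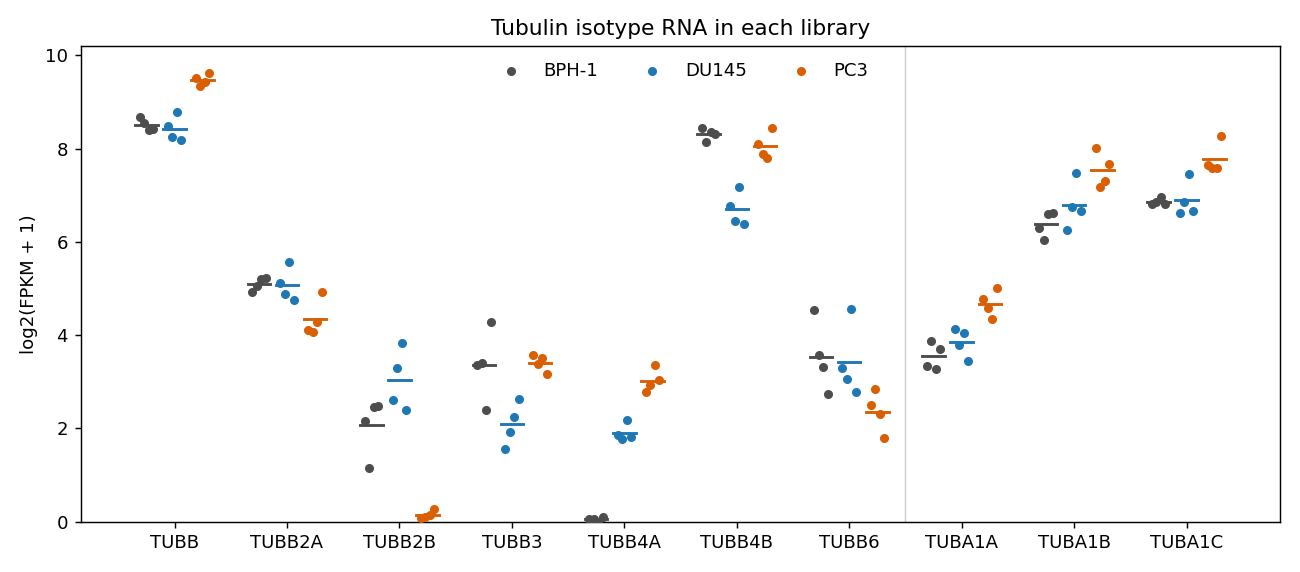
Level of each tubulin gene in each library, as log2(FPKM + 1) on the vertical axis, with 4 points per line and a bar at the mean. TUBB in PC3, TUBB4B in DU145, TUBB2B in PC3 and TUBB4A in BPH-1 stand apart from the other lines, while TUBB6 spreads widely within BPH-1 and DU145.

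The neuronal-type isotypes were minor and moved separately from each other. TUBB3, the class III isotype known from neurons and from studies of taxane resistance, stood at 9.257, 9.493, 4.269 and 18.5 FPKM in BPH-1. DU145 held 1.923, 2.772, 3.749 and 5.197 FPKM, and PC3 10.86, 9.381, 10.38 and 7.985. DU145 was the lowest line, although its highest library exceeded the lowest of BPH-1, and PC3 lay within the range of BPH-1. TUBB3 was lower in DU145 than in BPH-1 (3.41 ± 1.41 against 10.4 ± 5.93 FPKM, log2 difference -1.27 ± 0.37, limma adjusted p = 0.0136), a call lost without the 3 libraries that stood apart (-1.08, limma adjusted p = 0.0928). PC3 was 2.83 times as high as DU145, at 9.65 ± 1.27 FPKM (1.32 ± 0.23, limma adjusted p = 0.00136), and differed from BPH-1 by 0.05 ± 0.33 (limma adjusted p = 0.908).

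The read-through transcript AC092143.1 bears on these values because its reads were unevenly spread. It held 1212 and 799 reads in BPH-1 replicates 1 and 2 and 0 in replicates 3 and 4, 113, 0, 0 and 45 reads in DU145, and 0 in every PC3 library. With those reads added to TUBB3, BPH-1 averaged 13.4 ± 6.34 FPKM and DU145 3.65 ± 1.34. The difference between DU145 and BPH-1 became -1.52 (limma adjusted p = 0.00743), that between PC3 and BPH-1 -0.29 (limma adjusted p = 0.509) and that between PC3 and DU145 1.23 (limma adjusted p = 0.00113), so no call on TUBB3 changed.

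TUBB2B, a neuronal isotype mutated in cortical malformations, was nearly absent from PC3. BPH-1 held 199, 70, 262 and 265 reads of it (3.467, 1.232, 4.533 and 4.561 FPKM), and DU145 held 310, 534, 760 and 212 (5.138, 8.794, 13.23 and 4.244 FPKM). The PC3 libraries held 3, 4, 5 and 10 reads, or 0.06222, 0.07837, 0.09681 and 0.2074 FPKM. The PC3 level was below every library of the other lines, by 31.3 times against BPH-1 in reads per depth (95% interval 20.5 to 50.2, counting error only) and by 72.0 times against DU145 (47.4 to 115.1). On the log2(FPKM + 1) scale, which understates the change of low genes, the differences were -1.91 ± 0.26 (limma adjusted p = 1.528e-04) and -2.88 ± 0.29 (limma adjusted p = 4.9e-05). DU145 stood above BPH-1 by 0.97 ± 0.38 with overlapping libraries (limma adjusted p = 0.0456), a call kept in 4 of 13 alternative settings. It was lost with both trends divided out (0.52, limma adjusted p = 0.218), without the 3 libraries that stood apart (0.78, limma adjusted p = 0.159), and without BPH-1 replicate 1 or 2 or DU145 replicate 2 or 3 (0.67 to 0.999, limma adjusted p up to 0.120).

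TUBB2A, the paralogue of TUBB2B, was expressed at a higher level in all lines. It stood at 29.3, 32.28, 36.09 and 36.4 FPKM in BPH-1 and at 33.45, 28.53, 46.23 and 25.97 in DU145. PC3 held 16.32, 15.7, 18.47 and 29.32 FPKM, its replicate 4 alone reaching the range of the other lines. PC3 was lower than BPH-1 (19.96 ± 6.36 against 33.5 ± 3.38 FPKM, log2 difference -0.76 ± 0.19, limma adjusted p = 0.00524). Against DU145, at 33.5 ± 9.01, the difference was -0.73 ± 0.24 (limma adjusted p = 0.0312), which was lost without DU145 replicate 1 or 3 or PC3 replicate 1, 2 or 3 (-0.57 to -0.72, limma adjusted p up to 0.0876). DU145 and BPH-1 differed by -0.03 ± 0.19 (limma adjusted p = 0.909), and TUBB2A was called lower in DU145 with both trends divided out (-0.53, limma adjusted p = 0.00517). The sum of the pair was 37.0 ± 4.43 FPKM in BPH-1, 41.4 ± 12.6 in DU145 and 20.1 ± 6.42 in PC3. Of the reads of the pair, 6.42% to 18.4% were assigned to TUBB2B in BPH-1, 21.6% to 35.7% in DU145 and 0.680% to 1.26% in PC3. The 3 ranges did not overlap.

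The starts of both genes are shown as a description, and their part in the expression differences of the pair was not tested. These are 300 bases around the annotated RefSeq start (250 before it) on GRCh38.p14, with capitals at matches, on either strand, to 4 motifs that do not overlap each other here. The first is CCAAT, bound by the factor NF-Y. The others are TATAAA, which is bound by the general transcription machinery, then GGGCGG, which Sp1 family factors bind, and finally the letters TTTGAA.
TUBB2A start, chr6:3157495-3157794, minus strand: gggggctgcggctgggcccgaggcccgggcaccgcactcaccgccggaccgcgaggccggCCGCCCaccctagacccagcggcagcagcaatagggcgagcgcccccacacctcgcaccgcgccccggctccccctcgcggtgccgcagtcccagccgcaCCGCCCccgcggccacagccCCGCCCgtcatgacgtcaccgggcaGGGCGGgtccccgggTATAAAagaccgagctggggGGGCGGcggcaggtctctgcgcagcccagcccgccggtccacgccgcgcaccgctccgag
TUBB2B start, chr6:3227604-3227903, minus strand: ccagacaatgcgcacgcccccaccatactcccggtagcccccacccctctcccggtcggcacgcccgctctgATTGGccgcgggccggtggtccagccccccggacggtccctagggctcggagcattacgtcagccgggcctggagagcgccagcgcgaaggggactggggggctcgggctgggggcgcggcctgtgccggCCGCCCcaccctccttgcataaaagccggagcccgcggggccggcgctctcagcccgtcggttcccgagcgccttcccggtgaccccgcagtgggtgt
The promoter of TUBB2A held 5 matches to GGGCGG and 1 to TATAAA, and that of TUBB2B held 1 match to CCAAT and a single match to GGGCGG. Neither held TTTGAA. Aligned to each other the promoters were 50.2% identical. Among 35116 RefSeq promoters of the same length, 45.0% held GGGCGG, 34.6% CCAAT, 11.5% TATAAA and 15.2% TTTGAA, so such matches are common, and they are a description of the letters only.

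TUBB4A (ENSG00000104833, chr19:6494319-6502848, minus strand), an isotype best known from brain and myelinating cells, was the isotype with the largest differences of both cancer lines from BPH-1. BPH-1 held 4, 4, 0 and 9 reads, that is 0.03535, 0.03571, 0 and 0.07858 FPKM, and 3 reads would be 0.0263 FPKM in the library at 0. DU145 held 2.615, 2.431, 3.506 and 2.519 FPKM, and PC3 5.872, 6.611, 9.195 and 7.249. The lines did not overlap in any pair, with BPH-1 lowest and PC3 highest. In reads per depth, PC3 was 193.6 times BPH-1 (95% interval 120.7 to 332.8, counting error only) and DU145 73.9 times (46.0 to 127.3). The limma differences were 2.97 ± 0.13 for PC3 and 1.85 ± 0.11 for DU145 against BPH-1 (limma adjusted p = 1.432e-07 and 9.839e-07). PC3 exceeded DU145 by 1.12 ± 0.17, or 2.61 times (limma adjusted p = 5.704e-04). Each of these calls was kept under every alternative that gave a value, and the exons of TUBB4A shared no 100-base run with another gene. Of the 10 neural and neuroendocrine markers, ELAVL4, DCX and STMN2 stood at 0 in all lines, ENO2 rose from 2.48 FPKM in BPH-1 to 6.63 in PC3 (1.13 ± 0.19, limma adjusted p = 4.696e-04), and MAP2 from 0.221 to 0.674 in DU145 (0.43 ± 0.15, limma adjusted p = 0.0262). In PC3 MAP2, SYP, CHGB and NCAM1 were called lower, and in DU145 SYP and CHGB. The part of the cells' neural or neuroendocrine genes in the TUBB4A difference was not tested.

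TUBB6 (ENSG00000176014, chr18:12307669-12344320, plus strand), the class V beta isotype, varied widely within BPH-1 and DU145. BPH-1 held 22.36, 10.91, 8.954 and 5.623 FPKM, DU145 8.885, 7.347, 22.42 and 5.867, and PC3 4.669, 6.152, 3.974 and 2.448. PC3 was the lowest on average but overlapped both other lines. PC3 was called lower than BPH-1 (4.31 ± 1.54 against 11.96 ± 7.27 FPKM, log2 difference -1.18 ± 0.36, limma adjusted p = 0.0161) and than DU145 (11.1 ± 7.63, -1.06 ± 0.38, limma adjusted p = 0.0450). The latter was lost without DU145 replicate 1 or 3 or PC3 replicate 1, 3 or 4 (-1.11 to -0.69, limma adjusted p up to 0.107). It became -0.37 and was not called without the 3 libraries that stood apart, among them DU145 replicate 3 with its 22.42 FPKM. DU145 and BPH-1 differed by -0.12 ± 0.44 (limma adjusted p = 0.831).

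As shares of summed beta tubulin FPKM, which do not depend on how libraries were scaled against each other, TUBB took 46.9% to 52.8% in BPH-1, 65.5% to 69.8% in DU145 and 66.8% to 72.0% in PC3. TUBB4B took 39.6% to 45.6%, 19.6% to 21.3% and 23.5% to 29.2% in the same order. For both genes BPH-1 lay outside the range of the cancer lines, and DU145 and PC3 overlapped for TUBB but not for TUBB4B. Mean shares in BPH-1, DU145 and PC3 were 4.55%, 6.51% and 1.93% for TUBB2A, 1.41%, 0.701% and 0.959% for TUBB3 and 1.57%, 2.03% and 0.436% for TUBB6. TUBB2B made up 0.465%, 1.49% and 0.0106%, and TUBB4A 0.00506%, 0.546% and 0.717%. The order of TUBB and TUBB4B in BPH-1 depended on the gene length: with overlapping exons merged into 1 length, TUBB averaged 41.1% and TUBB4B 49.5% there, while in DU145 (61.2% and 25.3%) and PC3 (62.5% and 32.2%) TUBB stayed ahead. The lower TUBB share in BPH-1 held with either length.

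**Figure D2:**
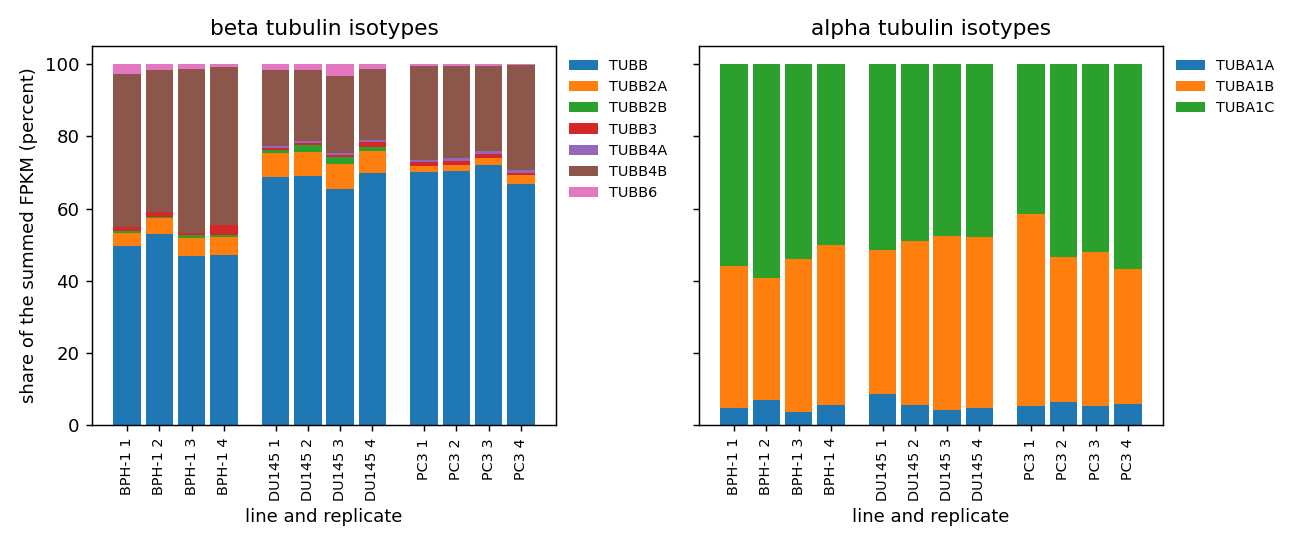
Share of each isotype in the summed FPKM of the 7 beta and of the 3 alpha tubulin genes, in percent of each library, stacked by gene. In BPH-1 TUBB and TUBB4B take nearly equal parts of beta tubulin (49.1% and 42.9% on average), in DU145 68.3% and 20.4%, and in PC3 69.9% and 26.1%, while the alpha shares of the 3 lines overlap.

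All 3 alpha tubulin genes were higher in PC3 than in BPH-1, and none was called different between DU145 and BPH-1. They lie together on chromosome 12 and are the main alpha isotypes of dividing cells, TUBA1A being also the chief alpha isotype of developing neurons. TUBA1B (ENSG00000123416, chr12:49127782-49131397, minus strand) stood at 77.91, 64.75, 96.02 and 97.73 FPKM in BPH-1. It stood at 75.15, 106.6, 176.6 and 99.88 FPKM in DU145 and at 256.8, 142.8, 156.5 and 201.0 in PC3. PC3 lay above BPH-1 throughout and overlapped DU145, whose replicate 3 was high. PC3 was 2.25 times BPH-1 (189 ± 51.5 against 84.1 ± 15.7 FPKM, log2 difference 1.14 ± 0.20, limma adjusted p = 7.983e-04). PC3 against DU145, at 115 ± 43.5, gave 0.75 ± 0.28 and just missed the threshold (limma adjusted p = 0.0505), and it passed in 6 of 13 alternative settings, among them with both trends divided out (0.79, limma adjusted p = 0.0331) and without the 3 libraries that stood apart (0.79, limma adjusted p = 0.0451). It also passed without DU145 replicate 3 (0.98, limma adjusted p = 0.00758) or PC3 replicate 2 (0.87, limma adjusted p = 0.0480).

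TUBA1C (ENSG00000167553, chr12:49188736-49274603, plus strand) stood at 110.7, 114.2, 123.3 and 110.5 FPKM in BPH-1. DU145 held 96.86, 114.6, 174.5 and 100.4 FPKM and PC3 200.0, 190.5, 191.2 and 306.1. PC3 exceeded every library of the other lines, with its replicate 4 far above the rest. The mean of PC3, 222 ± 56.2 FPKM, was 1.94 times that of BPH-1, 115 ± 5.997 (0.92 ± 0.16, limma adjusted p = 5.86e-04). It was 1.83 times that of DU145, 122 ± 36.1 (0.87 ± 0.23, limma adjusted p = 0.0120). Without PC3 replicate 4 the PC3 mean was 194 FPKM.

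TUBA1A (ENSG00000167552, chr12:49184796-49189324, minus strand) was the least abundant of the alpha genes. BPH-1 held 9.176, 13.69, 8.634 and 12.06 FPKM, DU145 16.51, 12.83, 15.52 and 9.871, and PC3 26.22, 22.89, 19.45 and 31.13. Again PC3 did not overlap the other lines and they overlapped each other. The PC3 mean of 24.9 ± 4.98 FPKM was 2.29 times that of BPH-1, 10.9 ± 2.40 (1.13 ± 0.18, limma adjusted p = 4.157e-04), and 1.82 times that of DU145, 13.7 ± 2.98 (0.82 ± 0.20, limma adjusted p = 0.00747). TUBA1A and TUBA1C overlap at their starts on opposite strands, and the strand setting of the counting was not given in the sources used here, so reads of the overlap cannot be assigned between them.

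Between DU145 and BPH-1 the alpha genes gave 0.30 ± 0.21, 0.39 ± 0.26 and 0.04 ± 0.19 for TUBA1A, TUBA1B and TUBA1C (limma adjusted p = 0.227, 0.205 and 0.857), and with both library trends divided out they stood at -0.14, -0.09 and -0.41 (limma adjusted p = 0.497, 0.778 and 0.0609). The shares of the alpha genes overlapped between the lines, where TUBA1C took 54.9% ± 3.81, 48.9% ± 1.75 and 51.0% ± 6.68 of alpha FPKM in BPH-1, DU145 and PC3, TUBA1B 39.9% ± 4.65, 45.3% ± 3.78 and 43.3% ± 6.92, and TUBA1A 5.25%, 5.79% and 5.73%. Summed over TUBA1A, TUBA1B and TUBA1C only, alpha tubulin was 210 ± 17.1 FPKM in BPH-1, 250 ± 80.0 in DU145 and 436 ± 89.0 in PC3. In PC3 this was 2.08 ± 0.457 times BPH-1 (ratio of means with its propagated SD). The sum leaves out TUBA4A, which was lower in both cancer lines (33.6, 8.52 and 19.8 FPKM in BPH-1, DU145 and PC3). Summed beta tubulin was 742 ± 53.3, 512 ± 117 and 1022 ± 117 FPKM, with ratios to BPH-1 of 1.38 ± 0.186 in PC3 and 0.69 ± 0.165 in DU145.

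Counted over the 10 genes, 8 were called between PC3 and BPH-1, 5 higher and 3 lower in PC3, and 6 had no overlap between the lines. Over all genes tested in that comparison, 67.6% of 16408 were called (27.1% higher and 40.4% lower) and 64.4% had no overlap, so 8 of 10 stood near the background. Between DU145 and BPH-1, 4 were called, TUBB4A and TUBB2B higher and TUBB4B and TUBB3 lower, beside 62.7% of 17016 genes (30.3% higher and 32.4% lower), and 2 had no overlap, beside 59.5% of all genes. Between PC3 and DU145, 9 were called, 6 higher and 3 lower in PC3, beside 48.3% of 16420 genes (20.0% higher and 28.3% lower), and 7 had no overlap, beside 46.5%. The median log2 difference of the 10 was 0.48, 0.01 and 0.85 in these comparisons, beside -0.13, -0.03 and -0.05 over all genes. With the libraries scaled to the same sum, the median over all genes in PC3 against BPH-1 moved to -0.28 and the share of calls that were higher from 40.2% to 30.3%, and with upper-quartile scaling to 0.09 and 54.6%. In DU145 against BPH-1 these were -0.16 and 38.6%, and 0.13 and 57.3%, beside 48.4% as deposited. None of the calls above changed direction under these scalings. The first pair of comparisons shares the BPH-1 libraries. An exact permutation test of 4 against 4 libraries cannot give a p below 0.0286.

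**Figure D3:**
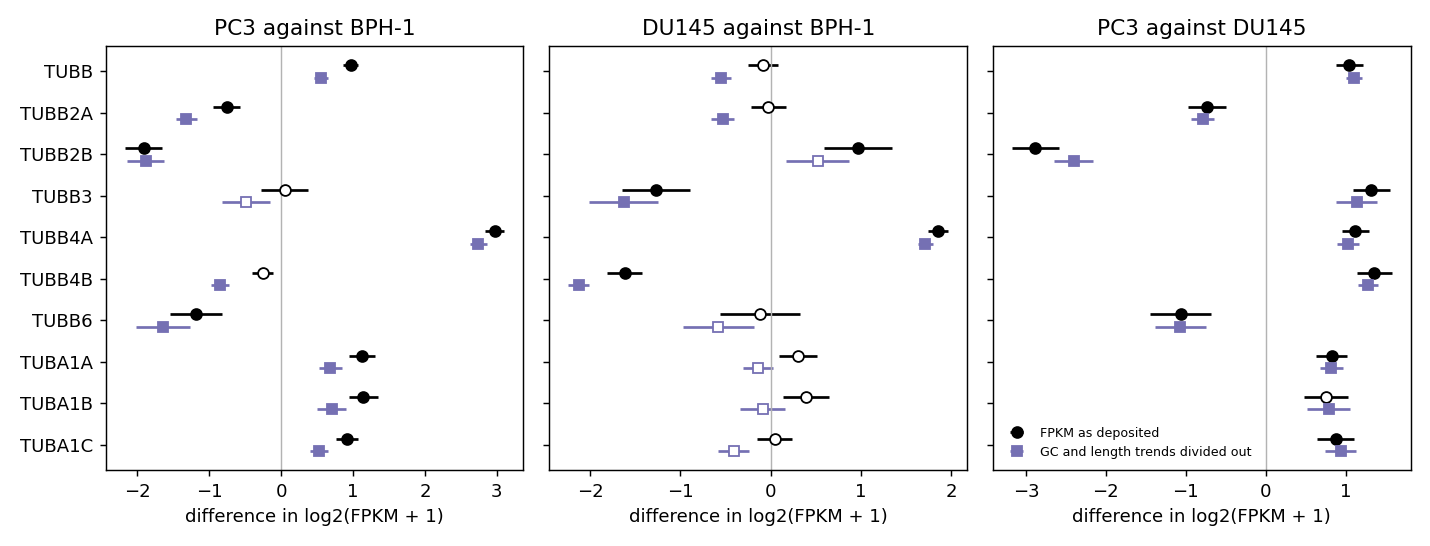
Log2 differences between lines for each tubulin gene with standard errors, 1 panel for each comparison, as deposited (circles) and with the length and GC trends divided out (squares), filled where the limma adjusted p was under 0.05. The correction moves nearly all genes down against BPH-1 (TUBB in PC3 from 0.97 to 0.56, TUBB4B in DU145 from -1.62 to -2.13) and moves the PC3 against DU145 values less.

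The 3 libraries that stood apart bear on several values within the lines. DU145 replicate 3, the library with the strongest length trend, was the highest DU145 library for 8 of the 10 genes. PC3 replicate 4 was the highest PC3 library for 6 and the lowest for 2, TUBB3 and TUBB6. DU145 replicate 1, which also stood apart, was the highest DU145 library for 1 gene, TUBA1A. It was the lowest for 3, TUBB3, TUBA1B and TUBA1C. Without these 3 libraries, the means in BPH-1, DU145 and PC3 were 364, 298 and 687 FPKM for TUBB and 318, 84.2 and 243 for TUBB4B. TUBB still lay higher in every remaining PC3 library than in any other library, and TUBB4B was lower in DU145 by a wider margin than with all libraries. All calls between PC3 and BPH-1 were kept with both trends divided out, where TUBB2A stood at -1.32, TUBB2B at -1.88, TUBB4A at 2.74, TUBB6 at -1.65, TUBA1A at 0.68, TUBA1B at 0.70 and TUBA1C at 0.53.

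**Figure D4:**
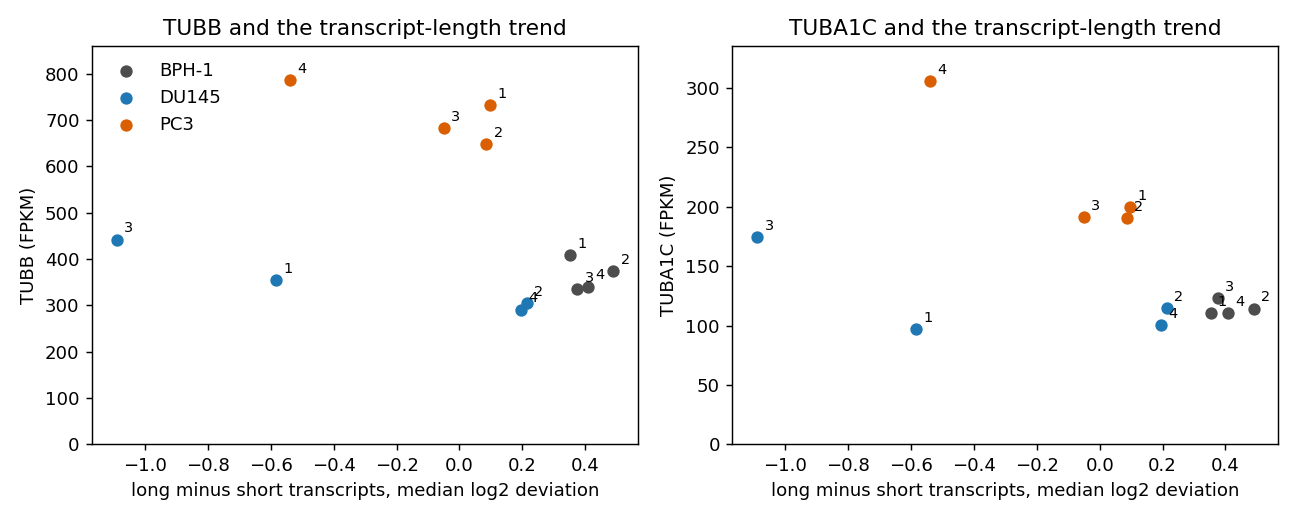
FPKM of TUBB and TUBA1C in each library against the library's excess of long over short transcripts (log2), numbered by replicate. DU145 replicate 3, at -1.09 on the horizontal axis, is the highest DU145 library for both genes (442.0 and 174.5 FPKM), and PC3 replicate 4, at -0.54, the highest PC3 library (786.8 and 306.1). DU145 replicate 1, at -0.58, is the lowest DU145 library for TUBA1C (96.86 FPKM) and lies within the DU145 range for TUBB (355.1).

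The proteins that make, fold, modify and bind tubulin were followed through 83 other genes. Of the 70 tested between PC3 and BPH-1, 43 were called, 16 higher and 27 lower, with a median log2 difference of -0.18 beside -0.13 over all genes. Between DU145 and BPH-1, 45 of 71 were called, 21 higher and 24 lower, and between PC3 and DU145 32 of 69, 13 higher and 19 lower. These shares stood near those of all genes given above, and with upper-quartile scaling the split in PC3 against BPH-1 became 24 higher and 18 lower. Genes called lower than BPH-1 had longer transcripts than those called higher (medians of 3700 against 2165 bases in PC3 and 4118 against 2031 in DU145) and a lower GC content (43.8% against 54.2%, and 44.0% against 53.5%). The libraries also differed along length and GC content, and the part of these trends in the calls as a whole was not tested. For the genes named below, calls were kept with both trends divided out unless stated.

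Among the other tubulins, the alpha isotype TUBA4A fell in both cancer lines, from 33.6 FPKM in BPH-1 to 8.52 in DU145 (-1.84 ± 0.19, limma adjusted p = 2.19e-05) and 19.8 in PC3 (-0.73 ± 0.20, limma adjusted p = 0.00893, lost with upper-quartile scaling). TUBA8 rose from 0.215 FPKM to 1.34 in DU145 (0.93 ± 0.13, limma adjusted p = 1.81e-04). TUBB1 and TUBB8, the platelet and oocyte beta isotypes, summed to at most 0.516 FPKM in any library. TUBG1, the main gamma tubulin, which nucleates microtubules, rose in DU145 from 52.1 to 92.4 FPKM (0.79 ± 0.18, limma adjusted p = 0.00381). Its paralogue TUBG2 fell in PC3 from 9.38 to 3.79 FPKM (-1.12 ± 0.16, limma adjusted p = 1.632e-04), as did the epsilon tubulin TUBE1, from 3.45 to 0.806 (-1.30 ± 0.12, limma adjusted p = 1.209e-05).

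Tubulin is folded by the prefoldin and CCT complexes and then assembled by dedicated cofactors. Prefoldin genes were called higher in 4 and lower in 1 of 6 cases in each cancer line against BPH-1, beside 27.1% of all genes higher and 40.4% lower in PC3, and 30.3% and 32.4% in DU145. With both trends divided out, 1 of the 4 was still called higher in PC3 and 3 of the 4 in DU145, and neither of the lower calls was kept. PFDN2 stood at 451 FPKM in DU145 against 92.5 in BPH-1 (2.24 ± 0.20, limma adjusted p = 1.112e-05), and PFDN5 at 24.2 in PC3 against 7.87 (1.499 ± 0.14, limma adjusted p = 1.334e-05). Of the 8 CCT subunits, 3 were called lower and none higher in PC3, and 3 lower and 1 higher in DU145, beside the same shares of all genes. With both trends divided out, 2 of the 3 lower calls were kept in PC3 and all 3 in DU145, and the higher call was lost. CCT6A stood at 40.2 FPKM in PC3 against 65.4 (-0.71 ± 0.17, limma adjusted p = 0.00442) and CCT2 at 46.7 against 75.2 (-0.66 ± 0.13, limma adjusted p = 0.00136), both calls being lost with upper-quartile scaling. TCP1 fell from 43.6 to 19.0 in DU145 (-1.21 ± 0.25, limma adjusted p = 0.00202). Among the cofactors, ARL2, a small GTPase that acts with them, stood at 19.1 FPKM in PC3 against 10.7 (0.79 ± 0.10, limma adjusted p = 7.153e-05), a call lost with both trends divided out. TBCB, which binds alpha tubulin, rose from 5.52 to 14.6 FPKM in DU145 (1.24 ± 0.18, limma adjusted p = 2.578e-04). TTC5, the factor that recognises nascent tubulin when its messenger RNA is degraded at high free tubulin, rose in DU145 from 2.19 to 4.54 FPKM (0.79 ± 0.15, limma adjusted p = 0.00139). In PC3 TTC5 stood at 1.44 FPKM (-0.38 ± 0.11, limma adjusted p = 0.0102), a call lost with both trends divided out.

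Enzymes that act on the tubulin tail moved in both directions, with 5 higher and 5 lower of 19 tested in PC3 and 5 higher and 4 lower of 19 in DU145. In all, 10 of the 19 were called in PC3 and 9 in DU145, beside 67.6% and 62.7% of all genes tested. Of all genes, 27.1% were called higher and 40.4% lower in PC3, and 30.3% and 32.4% in DU145. With both trends divided out, 3 of the higher and 4 of the lower calls were kept in PC3, and 3 and 3 in DU145. VASH1, which removes the terminal tyrosine of alpha tubulin, rose from 0.524 FPKM in BPH-1 to 2.50 in PC3 (1.20 ± 0.10, limma adjusted p = 9.308e-06) and 1.19 in DU145 (0.52 ± 0.12, limma adjusted p = 0.00318). AGBL5, a deglutamylase that removes branch-point glutamates, rose in DU145 from 5.25 to 22.6 FPKM (1.90 ± 0.20, limma adjusted p = 2.517e-05). AGTPBP1, which shortens glutamate chains, fell in PC3 from 2.48 to 0.436 FPKM (-1.29 ± 0.13, limma adjusted p = 1.756e-05). TTLL5, a polyglutamylase, fell to 2.73 FPKM in PC3 and 1.604 in DU145 from 5.69 (-0.86 ± 0.17 and -1.49 ± 0.32, limma adjusted p = 0.00161 and 0.00257).

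Among proteins that bind the microtubule wall or its plus end, MAP4, the main microtubule-associated protein of non-neuronal cells, rose from 11.1 FPKM to 28.4 in PC3 (1.28 ± 0.09, limma adjusted p = 1.909e-06) and 21.9 in DU145 (0.91 ± 0.15, limma adjusted p = 4.624e-04). MAPRE3, an end-binding protein, rose from 2.42 to 9.68 FPKM in DU145 (1.65 ± 0.25, limma adjusted p = 2.702e-04), and MAPT, which encodes tau, from 0.0880 to 1.21 (1.01 ± 0.11, limma adjusted p = 4.087e-05). CKAP5, a microtubule polymerase, fell from 44.7 FPKM to 8.29 in PC3 (-2.56 ± 0.45, limma adjusted p = 7.82e-04) and 6.58 in DU145 (-3.14 ± 0.62, limma adjusted p = 0.00153). MAP7, which recruits kinesin-1, fell from 10.8 to 0.136 FPKM in DU145 (-3.38 ± 0.13, limma adjusted p = 1.037e-07) and to 3.84 in PC3 (-1.31 ± 0.16, limma adjusted p = 7.103e-05). CKAP5 has a longest transcript of 7121 bases, and its SD within the cancer lines, 5.37 and 6.37 FPKM, was of the size of its mean.

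Of the 10 proteins tested that depolymerise or sever microtubules, 7 were called lower and 1 higher in PC3, beside 40.4% of all genes lower and 27.1% higher. In DU145, 8 were lower and 1 higher, beside 32.4% and 30.3% of all genes. All 7 lower calls in PC3 and 6 of the 8 in DU145 were kept with both trends divided out, those on FIGNL1 and KATNAL1, the latter named after its values were seen, being lost in DU145. The depolymerising kinesin KIF2A fell from 11.3 FPKM to 2.50 in PC3 (-1.89 ± 0.25, limma adjusted p = 1.106e-04) and 2.76 in DU145 (-1.85 ± 0.32, limma adjusted p = 7.094e-04). FIGNL1, a relative of the severing protein fidgetin, fell from 3.03 to 0.674 FPKM in PC3 (-1.27 ± 0.24, limma adjusted p = 0.00126). The severing enzyme KATNA1, whose longest transcript has 1984 bases, fell from 11.2 to 4.36 and 3.11 FPKM (-1.19 ± 0.12 and -1.62 ± 0.23, limma adjusted p = 1.968e-05 and 1.918e-04). FIGN, another severing protein, fell from 2.81 to 0.219 and 0.248 FPKM (-1.64 ± 0.12 and -1.62 ± 0.16, limma adjusted p = 2.389e-06 and 1.634e-05). STMN3, a stathmin that sequesters tubulin dimers, was the exception in PC3, where it stood at 6.62 against 3.85 FPKM (0.65 ± 0.12, limma adjusted p = 8.971e-04, lost with both trends divided out), and it fell to 0.236 in DU145 (-1.97 ± 0.12, limma adjusted p = 8.788e-07). Proliferation markers (MKI67, TOP2A and 4 others) moved in the same direction as this list, summing to 408 to 454 FPKM in BPH-1, 92.3 to 144 in DU145 and 119 to 186 in PC3, and their part in these differences was not tested.

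**Figure D5:**
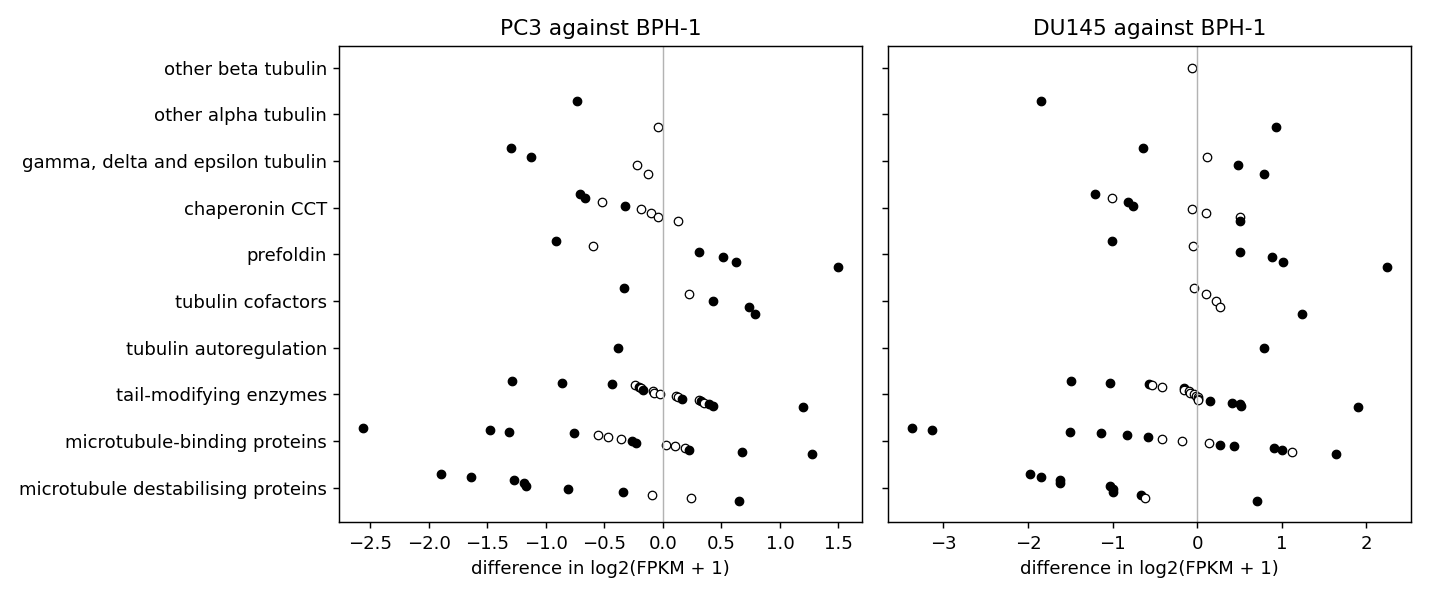
Log2 differences against BPH-1 of the other microtubule genes, grouped by list, for PC3 and DU145, filled where the limma adjusted p was under 0.05. Points of the destabilising proteins lie mostly below 0 in both lines, with KIF2A at -1.89 and -1.85, and those of the tail-modifying enzymes spread to both sides.

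For each isotype, the gene whose level followed it most closely over the 12 libraries was sought among 12473 genes with a mean of at least 1 FPKM. These Pearson correlations of log2(FPKM + 1) are descriptions, since libraries of a line share their origin and their length and GC trends. The nearest gene was PRPF31 for TUBB (r = 0.996), GTF2A2 for TUBB2B (0.961), GJB2 for TUBB3 (0.885), SPATC1L for TUBB4A (0.994) and PPCS for TUBB6 (0.856). It was PINK1 for TUBA1A (0.966), AKT1S1 for TUBA1B (0.917) and CYB561D2 for TUBA1C (0.967). The nearest to TUBB2A and TUBB4B were the antisense genes AC115618.1 (0.957) and AC006329.1 (0.990).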

How the data were processed

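Per the submitters' processing notes, reads were handled with CASAVA 1.8, HISAT2 2.1.0 and edgeR on GRCh38/hg38. The deposited values are FPKM made by the authors. The file header names no unit, and the counting program, strand setting and gene length were not given in the sources used here. All distinct exons in GENCODE release 29 were added up as the length of a gene. In 95.8% to 96.5% of values under 50 reads, the FPKM then corresponded to a whole number of reads within 0.02. This gave the depth of each library and the reads of the genes with a length. Of the 58302 genes, 263 had no length and were not tested, among them the tubulin cofactor gene TBCE. The tubulin genes and the gene lists were chosen with earlier results of these data known. Each comparison was fitted with limma 3.58.1 (R 4.3.3, trended variance) on log2(FPKM + 1), with only the lines compared, for genes with at least 10 reads in 4 libraries at the median depth and at least 15 in all. Significance was a Benjamini-Hochberg adjusted p under 0.05 over all genes tested. Length and GC trends were divided out per library with splines of 5 degrees of freedom fitted to genes holding 50 or more reads. On simulated data without library trends, limma recovered 96.5% to 98.5% of 200 genes changed by at least 2-fold, and 8 to 12 unchanged genes were called. The changed genes were well covered and the simulated spread between replicates was fixed, so these shares do not carry over to the real libraries. Recovery in the real libraries, which held length and GC trends, was not tested. Genes named from a list were taken from the up to 3 with the largest rise and the up to 3 with the largest fall in either cancer line against BPH-1 among called genes without overlap, and not every such gene is named. Counting intervals (95%) cover counting error only. Replicates of a line differed by more than sampling noise. Coding ends of the alpha genes are not reported here.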

Additional observations from a re-analysis of the deposited data

Results flagged for a closer look

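In PC3, TUBA1C stood at 306.1 FPKM in replicate 4, far above the 190.5 to 200.0 of the other PC3 libraries. Summed beta tubulin stood at 821.3 FPKM in BPH-1 replicate 1 against 707.2 to 723.1 in the others, and TUBB6 took 3.321% of beta tubulin FPKM in DU145 replicate 3 against 1.408% to 1.722%. These 3 gaps were found among 66 groups of 4 libraries examined, and chance alone gives a gap of this size in about 1 group in 20.

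For 9 of the 10 genes, the difference of PC3 from BPH-1 was itself different from that of DU145 from BPH-1, which is the test of PC3 against DU145 (limma adjusted p under 0.05). Of all 16420 genes tested in that comparison, 48.3% were called. The calls on TUBB2A and TUBB6 were each kept in 3 of the 8 fits that left out a library. The log2 differences between the cancer lines were 1.05 for TUBB, -0.73 for TUBB2A, -2.88 for TUBB2B, 1.32 for TUBB3, 1.12 for TUBB4A, 1.36 for TUBB4B, -1.06 for TUBB6, 0.82 for TUBA1A and 0.87 for TUBA1C.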

How the results depend on the processing

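Of the calls on tubulin genes, 6 of 8 in PC3 against BPH-1, 2 of 4 in DU145 against BPH-1 and 7 of 9 in PC3 against DU145 were kept under every alternative that gave a value. No called difference changed sign. Calling only changes of at least 2-fold left 5 genes in PC3 against BPH-1, beside 27.0% of all genes tested. In DU145 against BPH-1, 2 genes were called with the exact permutation test, beside 59.5% of all genes without overlap. Without DU145 replicates 1 and 3, 2 were called, beside 10557 of 17860 over all genes. That setting was chosen after seeing the data, as were the length corrections and the read-through reads. TUBB2A and TUBB6 in PC3 against BPH-1 were lost with upper-quartile scaling (limma adjusted p = 0.173 and 0.0515). Leaving out each library gave 8 to 9, 3 to 4 and 7 to 9 called genes, with 3 in DU145 against BPH-1 where TUBB2B was lost. Over all genes, those fits called 10601 to 11320 of 16692 to 16877 tested in PC3 against BPH-1. They called 9617 to 11458 of 17361 to 17436 in DU145 against BPH-1, and 7019 to 8239 of 16694 to 16913 in PC3 against DU145. The cause of the changed calls was not tested.

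With merged exon lengths the share of TUBB was 41.1%, 61.2% and 62.5% in BPH-1, DU145 and PC3, and that of TUBB4B 49.5%, 25.3% and 32.2%. Taken from reads without length, TUBB4B had 38.4%, 17.9% and 23.0%, TUBA1B 40.8% in DU145, and TUBA1C 59.8% in BPH-1 and 54.0% in DU145. With the other alpha genes added, TUBA1B had 34.4% in BPH-1, and TUBA1C 47.2% in BPH-1 and 46.9% in DU145. These values follow from the lengths and genes used. Summed beta tubulin in PC3 over BPH-1 was 1.14 with libraries scaled to the same sum and 1.85 with upper-quartile scaling. The latter also gave 0.87 in DU145 over BPH-1, and 2.81 for the sum of TUBA1A, TUBA1B and TUBA1C in PC3 over BPH-1.

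The labels give the lines the same replicate numbers. Same-numbered libraries correlated at -0.0896 to -0.0638, -0.136 to 0.104 and -0.655 to 0.515 between pairs of lines, so the numbers were not taken as a pairing. With the replicate number as a block, 8, 4 and 8 tubulin genes and 41, 42 and 27 other microtubule genes were called in the 3 comparisons, in the order above. Over all genes tested, those fits called 10733 of 16408, 10131 of 17016 and 6747 of 16420. The planned edgeR test was not run, since the deposited values are not counts. Depth limits TUBB4A in BPH-1 and TUBB2B in PC3, where a library held at most 10 reads.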
